A study of Homo sapiens with 6 samples.

Results

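The endometrial epithelium secretes proteins and signals that prepare the uterus for an embryo, and 10 genes of that program were read in an endometrial cancer line with and without knockout of ETV4, which encodes an ETS-family transcription factor. The genes were taken by name, LTF, C3, PAEP, SCGB2A1, MUC1, SPP1, LIF, IHH, CXCL12 and MSX1, and all 10 were found among the 26364 gene symbols of the deposited count table. Ishikawa is an established human endometrial adenocarcinoma line that responds to estrogen. The 6 poly(A)-selected RNA-seq libraries came from 3 lines, the parental Ishikawa line and the ETV4 knockout clones 1 and 2. From each line there was 1 vehicle library (0.1% DMSO) and 1 library from cells given 10 nM E2, the estrogen 17β-estradiol. Hormone-depleted medium was used before treatment for all of them. The labels give 1 h of treatment in the sample characteristics and 8 h in the protocol. The clone groups therefore had n = 2 and the parental groups 1 library each, so a difference between clones and parental line cannot be told apart from a difference between single lines, and single-line differences have no replicate check.

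In the uterus, estrogen acting through its receptor drives epithelial growth and, in rodents, the secretion of lactoferrin (LTF) and complement C3. Progesterone then turns the epithelium to a secretory state, in which glycodelin (PAEP) and osteopontin (SPP1) are made, the hedgehog ligand IHH signals to the stroma, and the cytokine LIF and the homeobox factor MSX1 take part in receptivity for the embryo. MUC1 is a mucin anchored in the apical membrane, CXCL12 is a chemokine that signals through CXCR4, and SCGB2A1 (mammaglobin B) is a small secretoglobin of glandular epithelia.

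RefSeq promoter windows on GRCh38.p14 were matched by symbol for 8 of the 10 genes, in 11 windows, and the 250 bases before each start were searched on both strands. The half-site GGTCA of the estrogen response element, the full element (GGTCA, then NNN, then TGACC, which contains the half-site) and the PEA3-type ETS motif AGGAAG were searched. The half-site was present in 32.6%, the full element in 0.0399% and the ETS motif in 28.7% of all 35116 RefSeq windows of this length. Shown are LTF, MUC1 and SPP1, the 3 genes with a window whose level differed at least 2-fold between treatments in the parental line. Capitals mark the matches. The LTF window, 1 of 3 listed for this gene and the one with the most matches, lies on the minus strand at chr3:46463655-46463904. It holds 2 half-sites and 3 overlapping or separate ETS motifs. No half-site was found in the other LTF windows, and the LTF window at chr3:46464906-46465155 holds no match of any kind. The MUC1 window lies on the minus strand at chr1:155192916-155193165 and holds 1 ETS motif. The SPP1 window lies on the plus strand at chr4:87975464-87975713 and holds neither motif.
LTF: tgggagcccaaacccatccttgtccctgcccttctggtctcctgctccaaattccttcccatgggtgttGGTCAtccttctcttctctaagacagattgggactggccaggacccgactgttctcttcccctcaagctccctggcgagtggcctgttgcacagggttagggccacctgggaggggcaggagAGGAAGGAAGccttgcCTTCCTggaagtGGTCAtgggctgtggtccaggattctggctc
MUC1: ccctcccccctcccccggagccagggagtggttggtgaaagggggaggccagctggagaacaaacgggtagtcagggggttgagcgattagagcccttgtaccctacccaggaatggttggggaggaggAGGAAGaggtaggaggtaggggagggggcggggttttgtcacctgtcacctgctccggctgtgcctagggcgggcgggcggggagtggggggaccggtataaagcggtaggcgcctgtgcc
SPP1: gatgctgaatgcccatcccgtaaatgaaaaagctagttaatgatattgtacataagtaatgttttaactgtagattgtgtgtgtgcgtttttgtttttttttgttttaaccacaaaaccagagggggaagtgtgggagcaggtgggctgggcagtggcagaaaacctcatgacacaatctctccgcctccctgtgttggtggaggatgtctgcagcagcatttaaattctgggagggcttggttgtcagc
Of the other 8 windows, the CXCL12 window had 1 half-site, 1 further LTF window had 2 ETS motifs, and the PAEP window and the second MUC1 window had 1 ETS motif each. The full element was found in none of the 11 windows. A match is a description of letters in the reference and not a measured binding site.

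The libraries held 28037392 to 36829479 counts, with 17755 to 18658 genes detected. The parental DMSO library stood apart, with the fewest genes detected from 33108589 counts and an effective size after TMM of 89.9% of its total, against 101% to 104% in the other 5. Some results that rest on it are given without it too, an alternative added after seeing the data. Others are not, among them the clone differences of C3, GLI1, MUC5B and MUC16. The part of this library in all of them was not tested. ETV4 separated the lines as labelled, with 586 and 1063 counts in the parental line and 71 to 122 in the clones. PGR and GREB1, well-known estrogen targets, had 48 and 153 counts in parental DMSO and 1302 and 1875 in parental E2. All 7 epithelial markers read (among them EPCAM, CDH1 and KRT8) had a mean of at least 2 CPM, and their summed level was 2139 to 3108 CPM. That sum was 2751 to 3108 CPM in DMSO and 2139 to 2354 CPM in E2. The largest E2 log2 changes of these markers were -0.68 for KRT8 and -0.67 for KRT18. Of the 7 estimates 5 were below 0 and 2 above, CDH1 at 0.09 and CLDN3 at 0.18. In the edgeR test for E2 given below 0 of the 7 passed, against 1.13% of all genes tested. The part of this sum in the results below was not tested. Blood markers summed to 3.19 to 5.58 CPM, with CD3E and HBB at 0, and endothelial markers to 1.85 to 4.27 CPM. Of the 9 stromal markers, summing to 48.9 to 87.2 CPM, PRL was at 0 and DCN had at most 3 counts, while COL1A1 was counted in every library (1306 to 2814 counts). Levels are given as CPM, the counts scaled to a common library size by TMM. Fewer cells of a kind and less RNA per cell cannot be told apart in such bulk libraries.

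Per kilobase of exon (union of GENCODE v29 exons), MSX1 stood highest with a mean over the 6 libraries of 247.8 CPM per kb, followed by SCGB2A1 at 29.3. MUC1 (1.26), SPP1 (0.615) and C3 (0.364) came next, and LIF (0.118) and LTF (0.0702) lay lowest among the genes that passed the filter on low counts. Neighbours in this order from MUC1 downwards overlapped over libraries: C3 reached 0.642 CPM per kb in parental DMSO, above the SPP1 value of 0.368 in clone 2 with E2. MSX1, SCGB2A1 and MUC1 did not overlap with each other in any library. PAEP and CXCL12 had 0 counts in all 6 libraries, which allows up to 3 counts, or 0.0802 to 0.103 CPM, in a library. IHH had 2 counts in each clone in DMSO and 0 in the other 4 libraries, all under that limit. These 3 genes could not be tested, and the other 7 were.

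**Figure D1:**
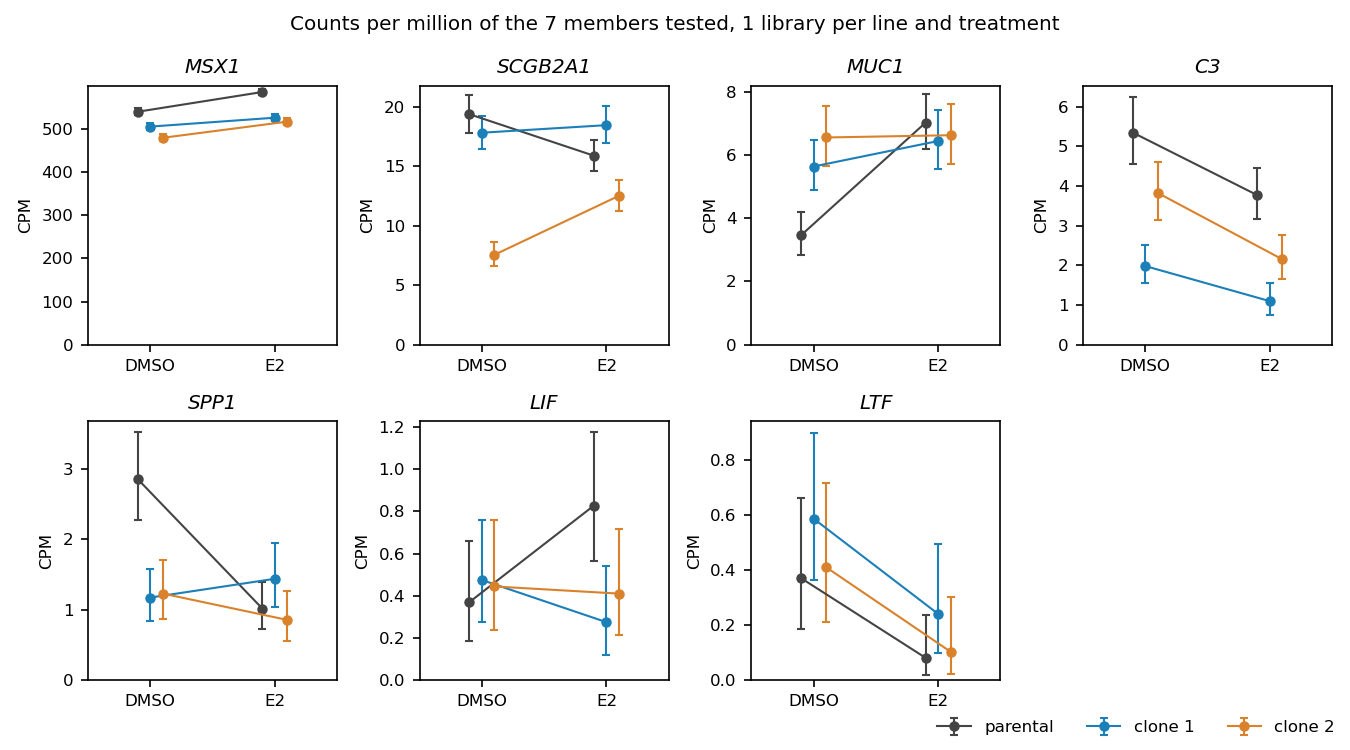
Level in CPM (vertical axes, each from 0) of the 7 genes tested, in DMSO and E2 (horizontal axes), with 1 point per library, 95% exact Poisson intervals for counting error as bars, and lines joining the libraries of 1 line. LTF and C3 slope down in all 3 lines, while MUC1, SPP1 and LIF change mainly in the parental line.

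Whether E2 altered these genes was asked first. None of the 7 passed the test for an E2 effect over the 3 lines (edgeR quasi-likelihood test, adjusted p below 0.05, 0 of 7 against 1.13% of the 15611 genes tested). With line as a replicate block it was 0 of 7 against 2.46%. At an unadjusted p under 0.05 there was 1 of 7, LTF, against 20.4% of all genes. limma-voom also called 0 of 7, against 1.11% of all genes. DESeq2 called 0 of the 6 that it gave an adjusted p (all but LTF), against 7.58%. The median log2 change over the 7 was 0.09, beside -0.02 over all genes tested. Only 2 of the 7, LTF and C3, were lower in E2 in each line, against 25.1% of all genes, and 2, MUC1 and MSX1, were higher in each line, against 27.8%. No member had all 3 E2 libraries above all 3 DMSO libraries, against 13.5% of all genes. In the parental line 4 of the 7, LTF, MUC1, SPP1 and LIF, differed at least 2-fold between the treatments, against 16.4% of all genes. In the clones this was LTF alone, against 6.04% of all genes in clone 1 and 6.51% in clone 2.

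Among the secreted defence proteins, the iron-binding LTF had the largest estimate. It had 11 counts in parental DMSO and 3 in parental E2, 21 and 7 in clone 1, and 12 and 3 in clone 2. In CPM these were 0.370 and 0.0802 in the parental line, 0.586 and 0.240 in clone 1, and 0.410 and 0.102 in clone 2. Every E2 library lay below every DMSO library, as for 10.7% of all genes tested. The ratio of the E2 to the DMSO level was 0.217 in the parental line, with a 95% counting interval of 0.0388 to 0.821. In clone 1 it was 0.409 (0.147 to 1.00). In clone 2 it was 0.250 (0.0453 to 0.927). The log2 change was -1.71 (SE 0.51), with an edgeR adjusted p of 0.166.

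C3, the central complement component, had 159 counts in parental DMSO and 141 in parental E2 from libraries of unequal size. Its level was 5.34 and 3.77 CPM in the parental line, 1.98 and 1.10 CPM in clone 1 and 3.82 and 2.15 CPM in clone 2. The direction was shared by the 3 lines, but the treatments overlapped over the lines. The parental E2 level was 0.705 times the DMSO level (95% counting interval 0.558 to 0.890). Clone 1 had a ratio of 0.554 (0.353 to 0.851), and that of clone 2 was 0.563 (0.407 to 0.773). The log2 change of -0.71 (SE 0.36) had an edgeR adjusted p of 0.305.

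SCGB2A1 moved differently in each line. It stood at 19.4 CPM in DMSO and 15.9 in E2 in the parental line, at 17.8 and 18.4 in clone 1, and at 7.55 and 12.5 in clone 2. Clone 2 was thus low in DMSO, and the E2 level there was 1.66 times the DMSO level (95% counting interval 1.40 to 1.97). In the parental line it was 0.820 times (0.730 to 0.921) and in clone 1 it was 1.04 times (0.922 to 1.16). The log2 change over the lines was 0.09 (SE 0.34), and it was -0.12 when clone 2 was left out. SCGB2A1 overlaps an antisense gene in GENCODE v29, as does LIF, while C3 and MUC1 overlap another gene on the same strand. Since the use of strand in counting is not given in the sources used here, reads of such partners cannot be told apart.

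For MUC1 the parental DMSO library stood apart from the other 5. It had 3.46 CPM there and 7.03 in parental E2, 5.64 and 6.44 in clone 1, and 6.56 and 6.63 in clone 2. E2 over DMSO was 2.03-fold in the parental line (95% counting interval 1.61 to 2.57). It was 1.14-fold in clone 1 (0.932 to 1.40). For clone 2 it was 1.01-fold (0.824 to 1.24). With total counts as the scale, the ratio in clone 2 turned to just under 1. The log2 change over the lines was 0.40 (SE 0.24), with an edgeR adjusted p of 0.366. Without the parental DMSO library it was 0.08 (SE 0.22).

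SPP1, a secreted ligand of integrins and CD44, was high in the parental DMSO library alone. Its 85 counts there gave 2.86 CPM, against 1.02 in parental E2, 1.17 and 1.44 in clone 1 and 1.23 and 0.854 in clone 2. E2 over DMSO was 0.355 in the parental line (95% counting interval 0.236 to 0.527). The clone 1 ratio was 1.23 (0.781 to 1.93), while clone 2 had 0.695 (0.400 to 1.19). The log2 change was -0.56 (SE 0.40), and -0.08 (SE 0.41) without the parental DMSO library.

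LIF was near the limit of detection, with 11 and 31 counts in the parental line, 17 and 8 in clone 1 and 13 and 12 in clone 2. The parental level was 0.370 CPM in DMSO and 0.828 in E2, a ratio of 2.24 (95% counting interval 1.10 to 4.94). In the clones the ratio was 0.578 (0.216 to 1.41) and 0.924 (0.385 to 2.20), and both intervals included 1. The log2 change over the lines was 0.14 (SE 0.47), and it was -0.43 without the parental line and -0.44 without the parental DMSO library.

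MSX1 was abundant and even. Its level was 539.7 and 585.4 CPM in the parental line, 505.2 and 525.8 in clone 1 and 479.3 and 516.7 in clone 2. E2 over DMSO was 1.08-fold in the parental line, 1.04-fold in clone 1 and 1.08-fold in clone 2, and the log2 change was 0.09 (SE 0.12). Of the 4 members averaging 2 CPM or more, its SD of log2 CPM over the libraries was the smallest, at 0.10, and it exceeded that of 6.32% of all such genes. C3 was the most variable of them, at 0.81.

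**Figure D2:**
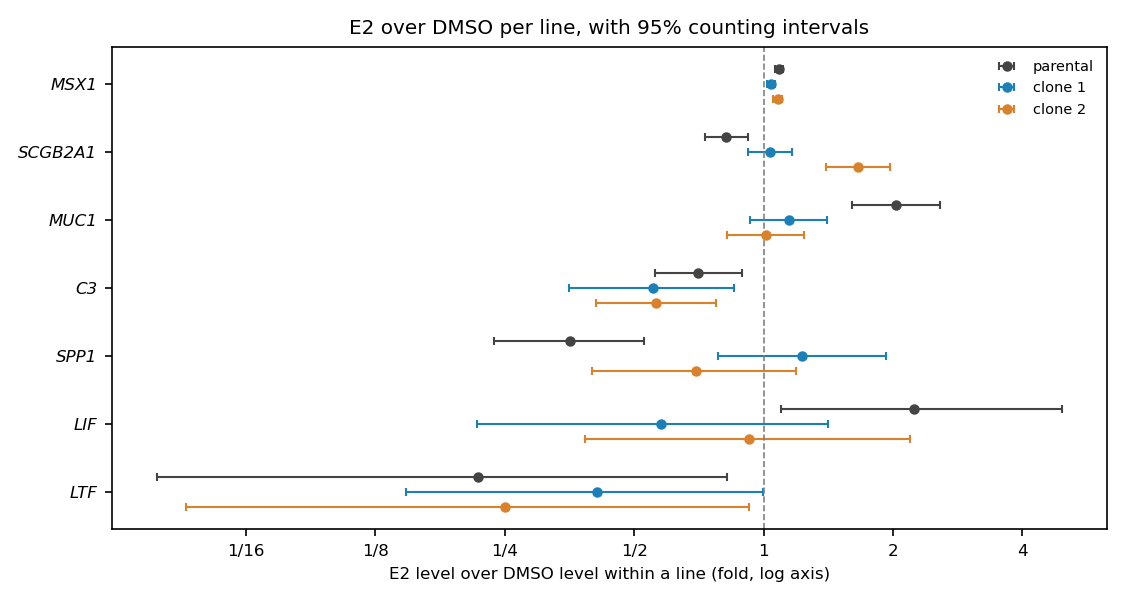
Fold of the E2 level over the DMSO level in each line (horizontal log axis, dashed line at 1) for the 7 genes tested (vertical axis), with 95% counting intervals that cover no variation between cultures. The parental points of MUC1 and LIF lie at 2.03 and 2.24 and that of SPP1 at 0.355, while the 6 clone intervals of these genes include 1.

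The second question was whether the knockout clones differed from the parental line with treatment in the model. Again none of the 7 passed (edgeR quasi-likelihood test, adjusted p below 0.05, 0 of 7 against 0.327% of all genes tested). With line as a random replicate block in limma-voom it was 0 of 7 against 0.295%. At an unadjusted p under 0.05 there was 1 of 7, C3, against 11.4% of all genes. DESeq2 and limma-voom also called 0 of 7, against 2.97% and 0.365% of all genes. The median log2 difference was -0.33, beside 0.01 over all genes.

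C3 had the largest estimate, -1.05 (SE 0.37), with an edgeR adjusted p of 0.368. It averaged 2.90 ± 1.30 CPM (SD, n = 2) in the clones in DMSO against 5.34 in the parental line, and 1.62 ± 0.746 CPM (SD, n = 2) in E2 against 3.77. The libraries overlapped, since clone 2 in DMSO (3.82 CPM) lay above parental E2 (3.77 CPM). The clones also differed from each other, with clone 2 at 1.93 times clone 1 in DMSO (95% counting interval 1.42 to 2.64) and 1.96 times in E2 (1.26 to 3.10). Without clone 2 the C3 estimate was -1.59, at an edgeR adjusted p of 1.51e-05. That fit sets clone 1 alone against the parental line, so it holds no replicate of the knockout and its p measures only the spread between libraries of different treatment. In such fits 4.09% of all genes passed without clone 1 and 6.41% without clone 2, and the same limit holds for every clone difference given below with a clone left out.

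For the other 6 genes the log2 difference was 0.65 (SE 0.54) for LTF, -0.33 (SE 0.35) for SCGB2A1, 0.32 (SE 0.26) for MUC1, -0.61 (SE 0.41) for SPP1, -0.56 (SE 0.48) for LIF and -0.15 (SE 0.13) for MSX1. MSX1 was the only member whose 4 clone libraries all lay below both parental libraries, as for 7.82% of all genes, and none lay above both, as for 8.53% of all genes. With total counts as the scale both clones of MSX1 stood above the parental line in DMSO. In DMSO the clones averaged 6.10 ± 0.649 CPM (SD, n = 2) of MUC1 and 1.20 ± 0.0404 CPM (SD, n = 2) of SPP1, where the parental line had 3.46 and 2.86. In E2 they averaged 6.54 ± 0.130 CPM (SD, n = 2) of MUC1 and 1.15 ± 0.414 CPM (SD, n = 2) of SPP1, beside parental values of 7.03 and 1.02. Without the parental DMSO library the log2 difference turned to -0.11 (SE 0.27) for MUC1 and 0.17 (SE 0.51) for SPP1. SCGB2A1 differed between the clones themselves, with clone 2 at 0.424 times clone 1 in DMSO (95% counting interval 0.362 to 0.495).

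The third comparison asked whether the E2 change depended on the genotype. Without a block no member passed the interaction test (edgeR quasi-likelihood test, adjusted p below 0.05, 0 of 7 against 0% of all genes tested). At an unadjusted p under 0.05 it was 0 of 7 against 7.62% of all genes. limma-voom called 0 of 7, against 0% of all genes. DESeq2 gave an adjusted p for MSX1 alone of the 7, which did not pass. With line as the replicate block 3 of the 7 passed, SCGB2A1, MUC1 and SPP1, against 15.8% of all genes tested. That fit left 1 residual degree of freedom and an infinite prior degrees of freedom. It thus relied on an estimate of the spread shared across genes and on none of a gene's own.

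For MUC1 the E2 log2 change in the clones minus that in the parental line was -0.92 (SE 0.40), or -0.92 (SE 0.32) with the block. The edgeR adjusted p was 0.617 without and 0.0332 with the block. For SPP1 the difference was 1.42 (SE 0.68), or 1.42 (SE 0.50) with the block, the clones being the higher. The edgeR adjusted p was 0.617 without and 0.0350 with the block. SCGB2A1 was higher by 0.57 (SE 0.71) without and 0.65 (SE 0.24) with the block. The edgeR adjusted p was 0.806 without and 0.0441 with the block. LIF had the estimate largest in size, -1.58 (SE 0.86), and did not pass in either fit, nor did LTF (0.62, SE 1.21), C3 (-0.33, SE 0.79) or MSX1 (-0.03, SE 0.26).

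**Figure D3:**
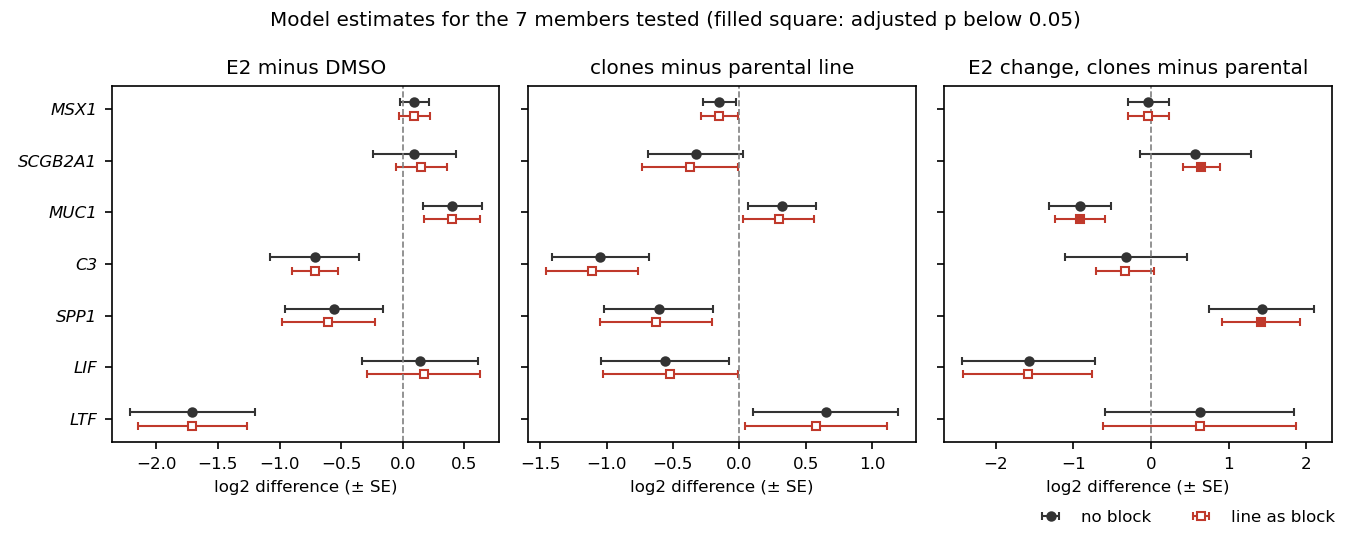
Estimated log2 differences with SE (horizontal axes) of the 7 genes tested for the E2 effect, the clones against the parental line, and the difference in E2 change. Circles are edgeR fits without a block, and squares have line as a replicate block (in edgeR, or for the clones against the parental line in limma-voom); the only filled squares, SCGB2A1, MUC1 and SPP1 for the difference in E2 change, passed the threshold.

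The parental E2 change moved with GC content across the transcriptome. Over 14607 genes with a known transcript, the median parental log2 change ran from -0.29 in the lowest of 5 equal classes of GC content to 0.37 in the highest, against medians of -0.04 to 0.10 in clone 1 and 0.000486 to 0.04 in clone 2. MUC1 lies in the highest class (71.2% GC) and LIF in the second highest (56.9%). SPP1 (41.8%) and SCGB2A1 (45.1%) lie in the second lowest. Relative to the median of its own class, the parental log2 change was 0.64 for MUC1 (1.01 before), -1.28 for SPP1 (-1.44 before) and 0.87 for LIF (1.04 before). For SCGB2A1 it was -0.13 (-0.29 before). That of MSX1 turned from 0.12 to -0.25. This comparison was chosen after seeing the data, and the part of GC content in the interaction was not tested.

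Genes with the most similar pattern over the 6 libraries were sought for C3, SCGB2A1 and MUC1 among 12363 genes, by the root mean square distance of log2 CPM centred on each gene's mean. Nearest to C3 were STRA6 (0.13), ACTA2 (0.14) and PRODH (0.21). Nearest to SCGB2A1 were LYSMD2 (0.10), EAF2 (0.12) and DPY19L2P1 (0.14), and nearest to MUC1 were NPB (0.04), ZNF865 (0.05) and RAP1GAP2 (0.05). ACTA2, for instance, stood at 15.0 and 10.9 CPM in the parental line, 5.61 and 3.84 in clone 1 and 9.25 and 6.39 in clone 2. ZNF865 had 13.8 CPM in parental DMSO and 21.9 to 26.2 in the other 5 libraries.

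For LIF, the receptor chains LIFR (14.9 to 23.5 CPM) and IL6ST (171.3 to 300.9 CPM) were expressed in every library. Of 14 genes of this pathway 0 passed for E2, against 1.13% of all genes, and 0 for the clones, against 0.327%. For IHH, the receptor PTCH1 (12.0 to 20.1 CPM) and the transducer SMO (53.7 to 86.7 CPM) were expressed. Of 11 hedgehog genes 0 passed either test, against the same 1.13% and 0.327% of all genes. GLI1, a hedgehog target, was at 7.87 and 8.20 CPM in the parental line and 2.74 to 4.41 in the clones, with a log2 difference of -1.17 (SE 0.23) and an edgeR adjusted p of 0.137. It passed in DESeq2 (-1.18), without clone 1 (-1.03) and without clone 2 (-1.37). PTCH1 had an E2 log2 change of 0.50 (SE 0.17), which passed only without clone 2 (0.63), where 21.6% of all genes did.

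For CXCL12, the receptor CXCR4 had 3.70 CPM in parental DMSO and 1.55 in parental E2, while the clones went from 3.85 to 4.76 and from 4.17 to 5.16. The clone-minus-parental difference in E2 change was 1.56 (SE 0.45), or 1.56 (SE 0.38) once line was a block. The edgeR adjusted p was 0.617 without and 0.00121 with the block. That block fit had 1 residual degree of freedom, and 15.8% of all genes tested passed in it. Of the 6 tested genes among CXCL12 receptors and CXC chemokines 2 passed there. The scavenger receptor ACKR3 stood at 0.321 to 1.59 CPM. Of the 6 genes of this list 0 passed for E2, against 1.13% of all genes, and 0 for the clones, against 0.327%. Among osteopontin receptors, CD44 (44.2 to 81.3 CPM) and ITGAV (242.4 to 360.3 CPM) were abundant. The integrin subunit ITGB3 had 36.5 CPM in DMSO and 21.1 in E2 in the parental line, 22.0 and 9.87 in clone 1 and 36.8 and 10.1 in clone 2. Its log2 change was -1.30 (SE 0.25), with an edgeR adjusted p of 0.0766 without and 0.0463 with the replicate block. It also passed in DESeq2 (-1.30), where 7.58% of all genes did. It passed too when clone 1 (-1.35) or clone 2 (-0.97) was left out, as did 4.83% and 21.6% of all genes. With the replicate block 1 of the 7 osteopontin receptors tested passed for E2, against 2.46% of all genes, and without it 0, against 1.13%.

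MUC1 was set beside 12 other mucins, of which 8 could be tested. The gel-forming MUC5B rose, by 3.83 on the log2 scale (SE 0.35), with an edgeR adjusted p of 0.00748. It was the 1 of the 8 that passed for E2, against 1.13% of all genes. It had 0.672 CPM in DMSO and 20.8 in E2 in the parental line, 6.08 and 50.1 in clone 1 and 6.39 and 89.3 in clone 2. MUC16 (CA125), another membrane mucin, had 8.20 and 29.3 CPM in the parental line, 25.0 and 48.5 in clone 1 and 51.4 and 71.4 in clone 2. Its E2 log2 change was 1.03 (SE 0.36) and its difference between clones and parental line 1.57 (SE 0.40). Neither passed in edgeR (adjusted p 0.199 and 0.241), whereas both passed in DESeq2 (1.03 and 1.57) and when clone 1 (1.11 and 1.94) or clone 2 (1.38 and 1.15) was left out. For the clones against the parental line 0 of 8 mucins passed, against 0.327% of all genes. MUC5B, at 2.22 (SE 0.39), passed there in DESeq2 (2.31). Its estimate was 2.52 without clone 1 and 1.89 without clone 2. With the replicate block the interaction was below 0 and passed for 4 of the 8, against 6.92% of all genes, with MUC5B (-1.52) and MUC16 (-1.13) among them. The 8 mucins did not all move in 1 direction. Of their edgeR estimates for E2, 6 were above 0 and 2 below, MUC15 at -2.28 (SE 0.64) and MUC20 at -0.64 (SE 0.18). For the clones 7 were above 0 and 1 below. The counts that follow take both directions, and those with a clone left out rest on 1 library per line and treatment. For E2 the mucins that passed were 5 of the 7 given an adjusted p in DESeq2, against 7.58% of all genes. They were 4 of 8 without clone 1, against 4.83%, and 7 of 8 without clone 2, against 21.6%. For the clones they were 4 of 8 in DESeq2, against 2.97% of all genes. As with MUC1, parental DMSO was the lowest library for MUC5B and MUC16.

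Of 10 tested genes around MSX and BMP signalling, 1 passed for E2, against 1.13% of all genes, and 2 for the clones, against 0.327%. ID1, an inhibitor of basic helix-loop-helix factors and a BMP target, fell by 0.94 on the log2 scale (SE 0.13) in E2, with an edgeR adjusted p of 0.0261. It went from 264.6 to 130.0 CPM in the parental line, from 154.6 to 81.4 in clone 1 and from 172.7 to 93.4 in clone 2. It missed the threshold without clone 1 (-0.98) and without the parental line (-0.91), where 0 of this list passed. ID3 and ID2, of the same family, were lower in the clones, with log2 differences of -1.96 (SE 0.24) and -1.40 (SE 0.18) and edgeR adjusted p-values of 0.0376 for ID3 and 0.0483 for ID2. ID3 had 22.8 and 12.1 CPM in the parental line and 3.21 to 7.31 in the clones, and ID2 had 18.9 and 12.6 CPM against 5.48 to 6.70. With line as a random replicate block in limma-voom the adjusted p was 0.0449 for ID3 and 0.0589 for ID2. Without the parental DMSO library none of these 3 passed, with -0.92 for ID1, -1.92 for ID3 and -1.16 for ID2, and 0.361% of all genes passed for E2 and 0.0129% for the clones. Without clone 2, 5 of the 10 passed for the clones, against 6.41% of all genes. MSX2, the paralog of MSX1, had at most 1 count in a library.

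**Figure D4:**
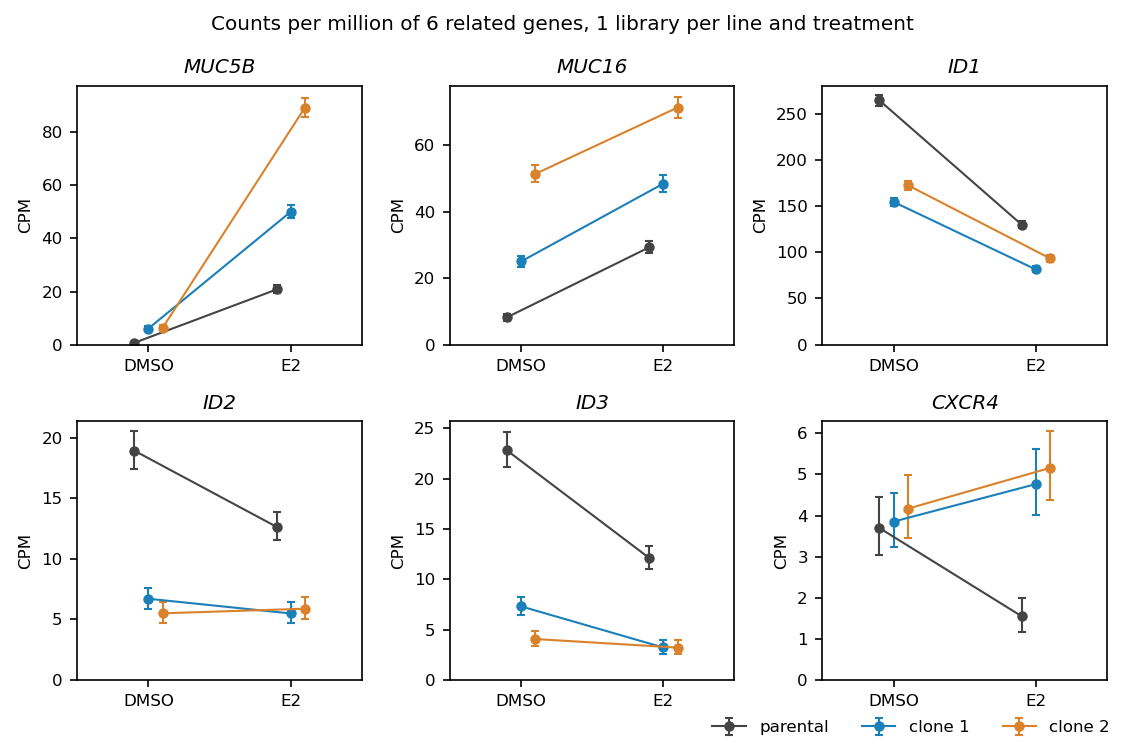
Level in CPM (vertical axes, each from 0) of 6 genes related to the members, in DMSO and E2 (horizontal axes), with 1 point per library, 95% exact Poisson intervals for counting error as bars, and lines joining the libraries of 1 line. MUC5B is higher and ID1 lower in E2 in all 3 lines, ID2 and ID3 lie lower in the clones, and CXCR4 is lower in E2 in the parental line alone.

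Of 10 complement genes beside C3, 0 passed for E2, against 1.13% of all genes, and 0 for the clones, against 0.327%. CD55, a complement inhibitor, stood at 20.5 to 34.9 CPM, and complement factor CFB had 0 counts in every library. Of 7 secretoglobins and lipocalins 0 passed in either comparison, against the same shares of all genes. LCN2 stood at 2.90 to 8.21 CPM and SCGB2A2, the paralog of SCGB2A1, at 0. With the replicate block 1 of these 7 passed for E2, against 2.46% of all genes. It was LCN8, which is named because it was the single call, after its values were seen, and had 2 to 3 counts in DMSO and 6, 32 and 40 in E2.

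Of 18 tested genes known to be higher in mid-secretory endometrium, 0 passed for E2, against 1.13% of all genes, and 1 for the clones, against 0.327%. That gene, STC1, a secreted glycoprotein hormone, was also named after its values were seen. It had 61 and 48 counts in the parental line and 0 to 2 in the clones, with an edgeR adjusted p of 0.0271, or 0.408 without the parental DMSO library. Of 3 genes lower in mid-secretory endometrium and 8 progesterone-side implantation factors, 0 passed in either comparison, against the same shares of all genes. The median E2 log2 change was -0.26 for the genes higher in the mid-secretory phase and -0.69 for those lower in it. Without clone 2, 4 of the 18 genes higher in that phase passed for E2, near the 21.6% of all genes that did, and 4 for the clones, against 6.41%.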

How the data were processed

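Per the labels' protocols, RNA came from Ishikawa cells in culture dishes and libraries were made with a stranded poly(A) kit. The authors deposited a table of raw counts per gene symbol, whole numbers with no normalization. The submitters' processing notes name HISAT2, SAMtools, Subread, DESeq2 and the build hg19, without their roles. Column names write DMOS or DMSO and ER, read as DMSO and E2. Nothing in the labels says that the 2 libraries of a line were separate cultures beyond their treatment, so p-values measure only the spread between these libraries, which may be technical.

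Counts were analysed in R 4.3.3. edgeR 4.0.16 kept 15611 genes by filterByExpr on the 4 groups, scaled by TMM and tested all of them by its quasi-likelihood test, with p-values adjusted by Benjamini-Hochberg and a threshold of 0.05. Models had genotype and treatment, or also their interaction. Standard errors are the log2 coefficient over the root of F. Log2 ratios of single libraries used a prior count of 2. The tests without a block were run on simulated counts of independent libraries, with no difference between lines and less spread than these data. The changed genes there had higher counts than LTF and LIF and larger changes than the members' estimates. That run therefore does not cover low counts, smaller changes or paired libraries. Counting intervals are exact (Poisson for levels, binomial for ratios) and cover counting error only. A count of 0 allows 3 counts.

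The genes, lists and tests were chosen with earlier results of these data known. Named were the 10 members, ETV4, PGR, GREB1, fixed receptors and partners, and up to 3 genes per direction of each list that passed with a mean of at least 2 CPM. LCN8 and STC1, under that level, fall outside this rule. Patterns were compared for the 3 most variable of the members with a mean of at least 2 CPM. Lists were not tested as sets.

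Clone numbers pair the libraries because both libraries of a number come from the same line; across 12367 genes, clone 2 minus clone 1 in DMSO had a Pearson correlation of 0.739 with the same difference in E2. Alternatives were median-ratio scaling, total counts, other filters, DESeq2 1.42.0, limma-voom (limma 3.58.1), the replicate block, each line or library left out, other prior counts and a GC comparison. Exon lengths and GC content came from GENCODE v29 by symbol (93.6% of genes tested matched), with no coordinates carried between builds.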

Additional observations from a re-analysis of the deposited data

Results flagged for a closer look

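The E2 change of LIF had the opposite sign in both clones and in the parental line, as for 13.1% of all genes tested. Its log2 ratio of E2 to DMSO was 1.04 for the parental line, -0.67 for clone 1 and -0.10 for clone 2. The interaction of -1.58 (SE 0.86) did not pass in edgeR (adjusted p 0.620, or 0.181 with line as a replicate block). The counts behind it were 8 to 31 per library.

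The E2 change of SCGB2A1 was likewise opposite, with log2 ratios of -0.29 (parental), 0.05 (clone 1) and 0.72 (clone 2). Its interaction of 0.57 (SE 0.71) had an edgeR adjusted p of 0.806, or 0.0441 with the replicate block. The counting interval of the clone 1 ratio included 1.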

How the results depend on the processing

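No member with an adjusted p passed for the E2 effect under any alternative run, and none for the clones against the parental line except without clone 2, where C3 passed (0 to 1 of 7 over the lines left out). For the interaction, 3 members passed with the replicate block and 0 under the other alternatives, where DESeq2 gave an adjusted p for 1 of the 7. The count over all genes moved more. For E2 it was 176, with 1115 in DESeq2, 384 with the replicate block, 56 without the parental DMSO library, 49 without the parental line, 745 without clone 1 and 3353 without clone 2. For the clones it was 51, with 454 in DESeq2, 2 without the parental DMSO library and 631 to 996 with a clone left out. For the interaction it was 0, with 29 in DESeq2 (1992 genes with an adjusted p), 2470 with the replicate block and 0 to 38 with a clone library left out (26 without clone 1 in E2, 38 without clone 2 in E2). With the replicate block the interaction also passed in lists not given for it above, against 15.8% of all genes. It did for 1 of 11 hedgehog genes, 1 of 7 osteopontin receptors, 1 of 10 complement genes and 1 of 7 secretoglobins and lipocalins. So did 4 of 18 genes higher and 1 of 3 lower in mid-secretory endometrium. Of the LIF pathway 0 of 14 passed, around MSX and BMP 0 of 10, and of the progesterone-side factors 0 of 8. LTF was not tested under the filter that asked 10 counts of each library.

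Direction turned for values that had not passed. Over the lines left out, the E2 log2 change ran from -0.12 to 0.28 for SCGB2A1, from -0.43 to 0.54 for LIF and from -0.46 to 0.30 for CXCR4, and the clone difference from -0.86 to 0.0468 for SCGB2A1. Over the clone libraries left out, the interaction ran from -0.0947 to 1.10 for LTF and from -0.89 to 0.22 for C3 (0.0765 without clone 1 in E2). Total counts shifted all ratios against parental DMSO by 0.17 in clone 1 and 0.22 in clone 2 on the log2 scale, and MSX1 turned to 0.0711 and 0.0459 there. Relative to its class of GC content, MSX1 turned to -0.25 in the parental line and -0.0396 in clone 1. Without the parental DMSO library the E2 change turned to -0.44 for LIF and 0.29 for CXCR4, and the clone difference to -0.11 for MUC1 and 0.17 for SPP1. The cause was not tested. LTF and LIF rest on 3 to 31 counts per library, which limits their precision. PAEP and CXCL12 had 0 counts and IHH at most 2, under the 3 counts that a count of 0 allows, so differences in them were not detectable at this depth. The interaction cannot be estimated without a parental library, and leaving out a whole clone leaves no residual degree of freedom.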
